A study of Mus musculus with 17 samples.

Results

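Liver macrophages that carried the Cx3cr1 reporter in mice on a high fat, high sucrose diet (Cx3cr1pos HFD, 4 libraries) were compared across all genes with Kupffer cells of chow-fed mice (STD KC, 3 libraries). The libraries were taken by the source recorded for each sample, and these 7 are part of 17 in the series. All mice were Cx3Cr1-GFP/WT on C57BL/6, so 1 copy of Cx3cr1, the receptor for fractalkine, is replaced by green fluorescent protein in both groups. The diets were a high fat, high sucrose chow (Research Diets D12492) for Cx3cr1pos HFD and standard mouse chow for STD KC, each given for 16 weeks. Cells were sorted from liver by flow cytometry, on the green reporter in Cx3cr1pos HFD and on high F4/80 with TIM4 in STD KC. A further 5 libraries of F4/80-high, TIM4-positive cells from mice on the high fat, high sucrose diet (HFD KC) were placed between the groups as a check of position and did not enter the test. There is no reporter-positive group on standard chow in the comparison, so diet and sorting gate cannot be told apart. The libraries of the groups also carry different name prefixes, hf or hfd and std, and the labels do not say whether these mark batches, which then cannot be told apart from the groups either. Nothing says that the libraries of a group came from separate mice, so the p-values measure the spread between these libraries, which may be technical.

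Kupffer cells are the resident macrophages of the liver sinusoids. They arise in the embryo, renew themselves locally, and clear bacteria, aged erythrocytes and modified lipoproteins from portal blood. Under loss of resident cells or metabolic stress, blood monocytes that carry CCR2 enter the liver and become macrophages, some of which take on a lipid-handling program marked by TREM2, CD9 and osteopontin. Cx3cr1 marks the monocyte lineage and is lost as cells take on the resident program, while TIM4 marks long-lived resident cells.

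Total counts per library ran from 25644835 to 38207943 in Cx3cr1pos HFD and from 31663475 to 35068590 in STD KC. At these totals 3 counts equal 0.0785 to 0.117 CPM, the count divided by the library total and multiplied by 1000000. Mitochondrial transcripts took 0.362 ± 0.0669% of counts in Cx3cr1pos HFD and 0.506 ± 0.142% in STD KC. Across genes, the log2 CPM of libraries correlated at 0.962 to 0.981 within Cx3cr1pos HFD, 0.981 to 0.986 within STD KC and 0.894 to 0.931 between the groups, with genes not independent replicates. Below, CPM values stand in the order hf1, hf2, hf3, hfd2 for Cx3cr1pos HFD and std1, std2, std3 for STD KC. CPM is not scaled to gene length, so values are compared between groups and not between genes.

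Of 13723 genes with enough counts to test, 4091 passed an adjusted p under 0.05 (29.8%), 1987 of them higher in Cx3cr1pos HFD (14.5%) and 2104 lower (15.3%). The test was edgeR's quasi-likelihood F-test, two-sided, with Benjamini-Hochberg adjustment over all 13723 genes, and fold changes are Cx3cr1pos HFD over STD KC, so that a positive log2 value means higher in Cx3cr1pos HFD. The change was at least 4-fold for 582 higher and 513 lower genes. The median log2 fold change of all genes tested was 0.01. Libraries of the 2 groups did not overlap for 3876 of the 4091 called genes. Among all 13723 genes tested, every Cx3cr1pos HFD library lay above every STD KC library for 2391 and below for 2917. Many of the genes named below were chosen for this separation, so it is no further support for them. The number of calls depended on single libraries: it was 2527 without std2 and 4941 without Cx3cr1pos HFD hfd2, and 2282 of the 4091 genes passed in each of the 7 fits that left out 1 library. RNA of sorted bulk cells was measured, so fewer cells of a type and less RNA per cell cannot be told apart.

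**Figure D1:**
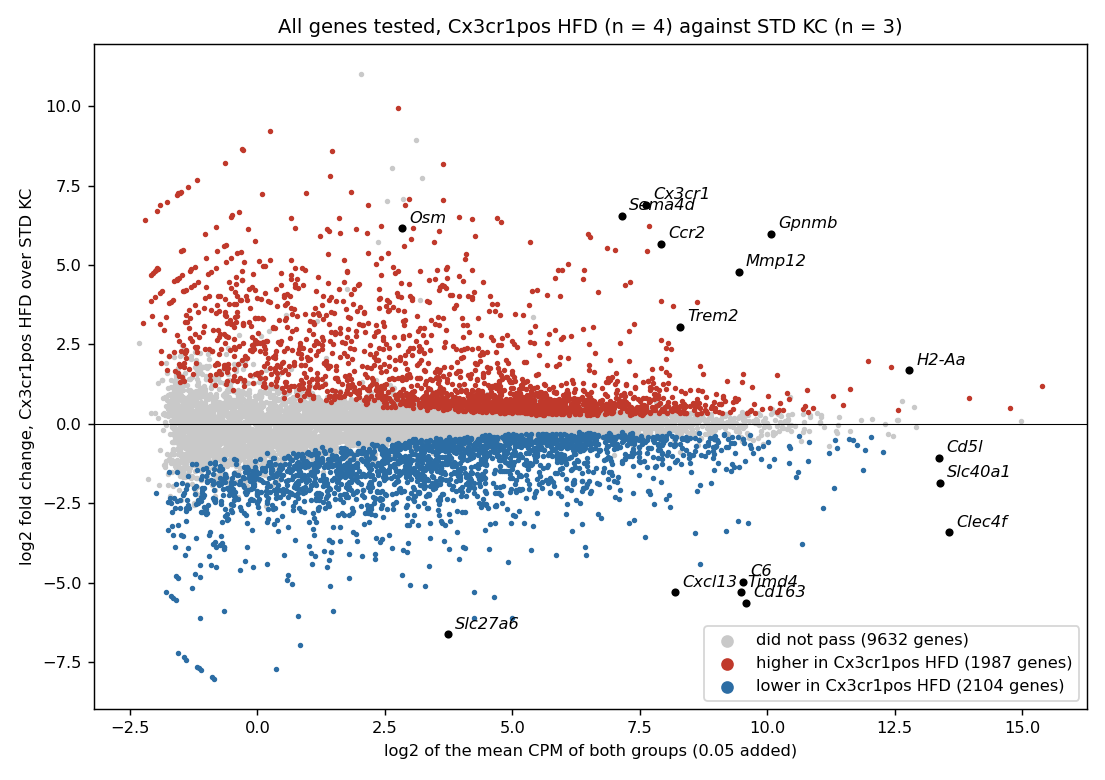
Log2 fold change of Cx3cr1pos HFD over STD KC (vertical axis) against the log2 of the mean CPM of both groups (horizontal axis, 0.05 added), 1 point per gene tested. Red points are the 1987 genes higher in Cx3cr1pos HFD, blue points the 2104 lower ones and grey points the 9632 that did not pass, and black points mark some of the genes named in the text, among them Cx3cr1 at 6.90 and Slc27a6 at -6.62.

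Genes used in the gates show whether the libraries fit their labels. Cx3cr1 (ENSMUSG00000052336) stood at 462, 439, 378 and 284 CPM in Cx3cr1pos HFD, against 3.04, 4.07 and 2.77 CPM in STD KC. Timd4 (ENSMUSG00000055546), which encodes the phosphatidylserine receptor TIM4, stood at 33.1, 25.5, 42.4 and 38.5 CPM in Cx3cr1pos HFD, against 1218, 1429.7 and 1519.7 CPM in STD KC. Both followed the gates with no overlap of libraries, Cx3cr1 higher by 6.90 ± 0.23 (log2 ± SE, adjusted p = 1.1e-06) and Timd4 lower (log2 fold change -5.30 ± 0.20, adjusted p = 1.5e-06). These differences describe the gates, since the sort selected on them. Adgre1, which encodes F4/80, averaged 2673 ± 711 CPM in Cx3cr1pos HFD and 4277 ± 288 CPM in STD KC, a difference of -0.66 ± 0.21 (adjusted p = 0.038) that passed in only 1 of the 7 fits that left out 1 library, the one without Cx3cr1pos HFD hfd2. The macrophage genes Fcgr1 (CD64) and Cd68 were present in all 7 libraries and did not pass. Fcgr1 averaged 429.6 ± 32.4 CPM in Cx3cr1pos HFD and 372 ± 20.2 CPM in STD KC. Cd68 averaged 2632 ± 108 CPM in Cx3cr1pos HFD and 2708 ± 320.4 CPM in STD KC. The label of STD KC as Kupffer cells is checked with the identity genes described next, all of which were counted in each STD KC library.

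Genes that mark resident Kupffer cells were lower in Cx3cr1pos HFD. Of a list of 21, 19 fell, 0 rose and 2 did not pass, with a median log2 fold change of -2.62 against 0.01 for all genes. The list includes Timd4, whose product TIM4 was used in the STD KC gate. Cd163 (ENSMUSG00000008845), the hemoglobin-haptoglobin scavenger receptor, stood at 34.3, 26, 18 and 41.1 CPM in Cx3cr1pos HFD, against 1327, 1661 and 1509 CPM in STD KC. C6 (ENSMUSG00000022181), a component of the complement membrane attack complex, stood at 33.7, 33.6, 32.3 and 78.3 CPM in Cx3cr1pos HFD, against 1407, 1482 and 1383 CPM in STD KC. Clec4f (ENSMUSG00000014542), a galactose-binding lectin restricted to Kupffer cells in rodents, stood at 1055, 2787, 1038 and 3302 CPM in Cx3cr1pos HFD, against 20800.0, 22936 and 23130.0 CPM in STD KC. For all 3 genes every Cx3cr1pos HFD library lay far below every STD KC library, and the Cx3cr1pos HFD libraries differed among themselves, with hf1 and hf3 lowest for Clec4f and hfd2 highest for C6. Cd163 fell by 5.63 ± 0.28 on the log2 scale (49.6-fold lower, adjusted p = 3e-06), C6 by 4.97 ± 0.35 (adjusted p = 1.3e-05) and Clec4f by 3.41 ± 0.43 (10.6-fold lower, adjusted p = 0.00034).

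Other identity genes fell by less on the log2 scale than Cd163 and C6. The ficolin Fcna, a soluble pattern receptor, averaged 218 ± 96.1 CPM in Cx3cr1pos HFD and 3084 ± 564 CPM in STD KC (log2 fold change -3.79 ± 0.34, adjusted p = 4.8e-05). The scavenger receptor Marco, which binds bacteria and particles and was lowest in hf2, averaged 30.4 ± 13 CPM in Cx3cr1pos HFD and 359 ± 88.1 CPM in STD KC (log2 fold change -3.56 ± 0.37, adjusted p = 0.00012). Vsig4, the complement receptor CRIg that captures bacteria from blood, averaged 595 ± 295 CPM in Cx3cr1pos HFD and 3797 ± 295 CPM in STD KC (log2 fold change -2.64 ± 0.36, adjusted p = 0.00052). Folr2, a folate receptor, averaged 160.4 ± 68.2 CPM in Cx3cr1pos HFD and 1413 ± 256 CPM in STD KC (log2 fold change -3.11 ± 0.33, adjusted p = 0.00012). Cdh5, VE-cadherin, is shared with endothelium and had a log2 fold change of -2.62 ± 0.20. Cd5l, Clec1b, Il18bp and Cd207 had the smallest called falls. Cd5l, a secreted inhibitor of apoptosis in macrophages, had a log2 fold change of -1.07 ± 0.27 (adjusted p = 0.015). Clec1b, the podoplanin receptor CLEC-2, had one of -0.77 ± 0.23 (adjusted p = 0.03). Il18bp, the interleukin-18 antagonist, had one of -0.77 ± 0.26 (adjusted p = 0.047), and Cd207, langerin, one of -0.59 ± 0.17 (adjusted p = 0.026). Cd5l passed in 6 of the 7 fits without 1 library (not without std2), Clec1b and Cd207 in 3 and Il18bp in 2. Clec1b and Il18bp lost their calls without std1, std2, std3 or Cx3cr1pos HFD hf3, and Il18bp also without Cx3cr1pos HFD hf1. Cd207 did not pass without std2, std3 or Cx3cr1pos HFD hf1 or hf3. The members that did not pass were Cd38, an ectoenzyme that degrades NAD (753 ± 208 CPM in Cx3cr1pos HFD and 1050.0 ± 57.2 CPM in STD KC), which passed without Cx3cr1pos HFD hfd2, and the integrin Itga9 (268 ± 85.4 CPM in Cx3cr1pos HFD and 283 ± 40.1 CPM in STD KC).

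The promoters of Timd4 and Fcna are shown because they are the 2 of 19 identity genes in the RefSeq promoter table whose window (250 bases before to 50 after the start) held TGCTGAC, the core letters of sites bound by MAF factors, which maintain resident macrophages. The stretches run from base -150 to -1 before the annotated start (RefSeq, GRCm38.p6), written along the gene, with the match on either strand in capitals. Timd4 lies on the plus strand at chr11:46810649-46810798 and carries the reverse complement, and Fcna lies on the minus strand at chr2:25627975-25628124.
Timd4: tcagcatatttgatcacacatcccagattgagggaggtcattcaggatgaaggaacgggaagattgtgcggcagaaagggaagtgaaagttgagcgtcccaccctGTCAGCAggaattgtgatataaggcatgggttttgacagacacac
Fcna: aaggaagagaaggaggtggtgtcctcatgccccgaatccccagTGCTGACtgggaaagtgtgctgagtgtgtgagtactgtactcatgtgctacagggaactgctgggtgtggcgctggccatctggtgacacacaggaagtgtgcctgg
At least 1 window held these letters in 6.48% of genes that fell, 3.89% of those that rose and 4.62% of those tested. Counted per window and not per gene, they stood in 4.67% of all 32851 windows. A match describes letters in a window and not a bound site.

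Factors that build or maintain the Kupffer cell program did not fall together. Of 24 lineage factors, 7 rose, 2 fell and 15 did not pass (median log2 fold change -0.01), 37.5% called against 29.8% of all genes tested. Among the factors that rose, Runx3 (ENSMUSG00000070691), a Runt factor of leukocytes, stood at 25.3, 8.85, 20.9 and 7.64 CPM in Cx3cr1pos HFD, against 0.282, 0.189 and 0.342 CPM in STD KC. Bhlhe41, a helix-loop-helix repressor active in tissue macrophages, averaged 27.5 ± 6.53 CPM in Cx3cr1pos HFD and 2.08 ± 0.572 CPM in STD KC (log2 fold change 3.74 ± 0.27, adjusted p = 1.6e-05). Pparg, the lipid-sensing nuclear receptor, averaged 86.7 ± 15.3 CPM in Cx3cr1pos HFD and 15.1 ± 4.31 CPM in STD KC (log2 fold change 2.54 ± 0.22, adjusted p = 4.2e-05). Rbpj, the transcription factor of Notch signalling, had a log2 fold change of 1.24 ± 0.16. Runx1, a Runt factor of blood formation, had a log2 fold change of 0.76 ± 0.16. The factors that fell were the nuclear receptor partner Rxra (167 ± 33.9 CPM in Cx3cr1pos HFD and 324 ± 49.9 CPM in STD KC, log2 fold change -0.95 ± 0.16) and Id3, an inhibitor of helix-loop-helix factors (log2 fold change -0.69 ± 0.17, adjusted p = 0.013, not passing without std2). The liver X receptor gene Nr1h3, which specifies Kupffer cells in mice, averaged 828 ± 142 CPM in Cx3cr1pos HFD and 1056 ± 141 CPM in STD KC and did not pass (adjusted p = 0.12). Spic, a factor of iron-recycling macrophages, averaged 191 ± 49 CPM in Cx3cr1pos HFD and 295 ± 81.3 CPM in STD KC (adjusted p = 0.062) and passed without Cx3cr1pos HFD hf2 or by DESeq2's test. Spi1, which encodes the myeloid factor PU.1, averaged 80.6 ± 6.27 CPM in Cx3cr1pos HFD and 81.9 ± 38.2 CPM in STD KC (adjusted p = 1). A p that misses the threshold does not show that the levels of these 3 genes were equal.

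**Figure D2:**
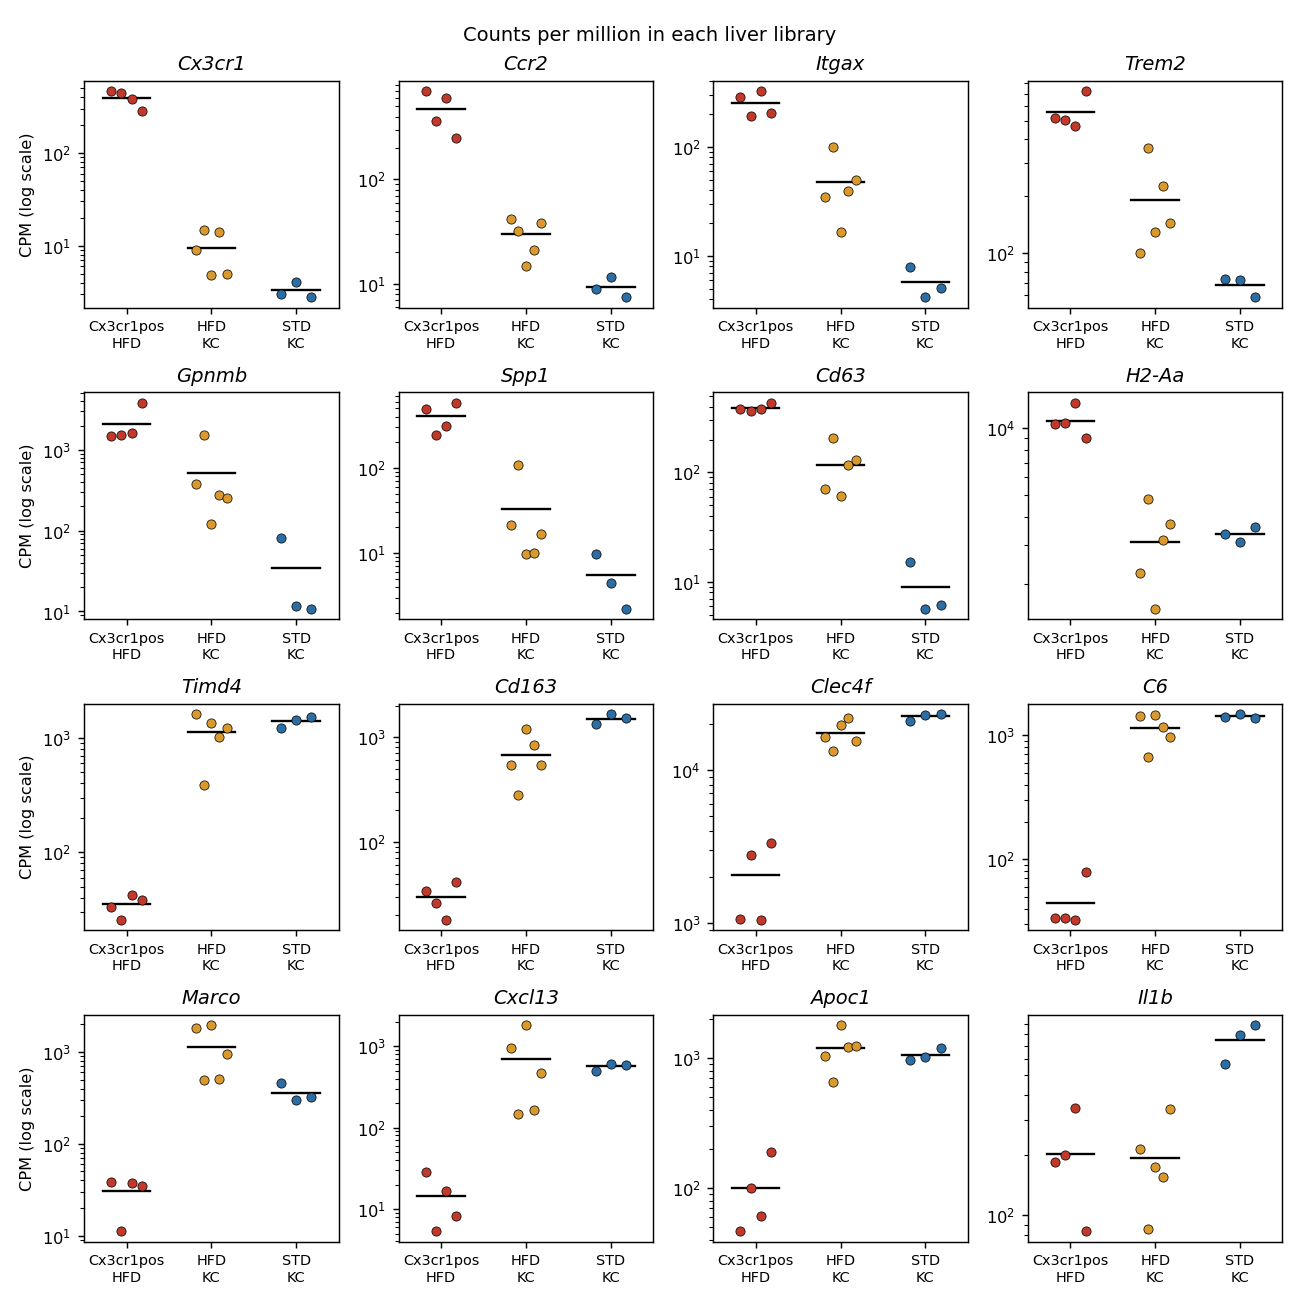
CPM of 16 genes (log scale, vertical axis) in each library of Cx3cr1pos HFD, HFD KC and STD KC (left to right), with 1 point per library and a bar at the group mean. Cx3cr1, Ccr2, Itgax, Trem2, Gpnmb, Spp1, Cd63 and H2-Aa are higher in Cx3cr1pos HFD than in STD KC, the other 8 genes are lower, and HFD KC lies close to STD KC for C6, Clec4f and H2-Aa but close to Cx3cr1pos HFD for Il1b.

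Genes of monocyte-derived cells formed the counterpart. Of 24 tested, 16 rose, 2 fell and 6 did not pass, with a median log2 fold change of 2.34. The list includes Cx3cr1, on which the cells were sorted. Ccr2 (ENSMUSG00000049103), the receptor that brings monocytes out of the marrow, stood at 697, 359, 600.3 and 249 CPM in Cx3cr1pos HFD, against 8.92, 11.7 and 7.41 CPM in STD KC. Itgax (ENSMUSG00000030789), the integrin CD11c, stood at 288, 192, 322 and 204 CPM in Cx3cr1pos HFD, against 7.89, 4.17 and 5.08 CPM in STD KC. Each Cx3cr1pos HFD library exceeded each STD KC library, by 50.9-fold for Ccr2 and 44.2-fold for Itgax in the fit (log2 5.67 ± 0.38 and 5.47 ± 0.29, adjusted p = 1.1e-05 and 3.8e-06). The calcium-binding protein gene S100a6 averaged 25.8 ± 8.02 CPM in Cx3cr1pos HFD and 1.55 ± 0.259 CPM in STD KC (log2 fold change 4.06 ± 0.27, adjusted p = 1.1e-05). The lectin gene Cd209a, also on the list of dendritic cell markers, averaged 22.2 ± 6.58 CPM in Cx3cr1pos HFD and 1.22 ± 0.354 CPM in STD KC (log2 fold change 4.20 ± 0.35, adjusted p = 3.2e-05), in a family whose reads can be shared. Ace, angiotensin-converting enzyme, averaged 21.5 ± 14.6 CPM in Cx3cr1pos HFD and 0.919 ± 0.186 CPM in STD KC (log2 fold change 4.55 ± 0.55, adjusted p = 0.00027). Each of the 3 genes was at a low level in STD KC. Ly6c2, which encodes the classical monocyte antigen and shares reads with close copies, was also higher (5.29 ± 1.09 CPM in Cx3cr1pos HFD and 0.729 ± 0.304 CPM in STD KC, log2 fold change 2.87 ± 0.34). S100a8 and S100a9, abundant in circulating classical monocytes and neutrophils, did not pass. S100a8 averaged 0.901 ± 0.695 CPM in Cx3cr1pos HFD and 0.828 ± 0.618 CPM in STD KC, and S100a9 averaged 0.296 ± 0.163 CPM in Cx3cr1pos HFD and 0.310 ± 0.375 CPM in STD KC. Lyz2, the macrophage lysozyme, averaged 6266 ± 971 CPM in Cx3cr1pos HFD and 5849 ± 129 CPM in STD KC and did not pass either. The members that fell were Ifitm3, an antiviral membrane protein (log2 fold change -0.92 ± 0.11), and Plac8 (log2 fold change -0.53 ± 0.13, adjusted p = 0.011, not passing without std1).

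Of 14 classical monocyte genes tested (15 listed) 10 rose and 1 fell, and of 15 nonclassical genes 6 rose and 3 fell. The shares called were 78.6% and 60%, against 29.8% of all genes tested. Cx3cr1, on which the cells were sorted, is on the nonclassical list and among its rises. The nonclassical genes that rose included Spn, the sialophorin CD43 (12.1 ± 4.67 CPM in Cx3cr1pos HFD and 0.389 ± 0.211 CPM in STD KC), and Eno3, an enolase (log2 fold change 1.25 ± 0.22). Adgre4, an adhesion receptor, was among those that fell (459.9 ± 78 CPM in Cx3cr1pos HFD and 1048 ± 29.3 CPM in STD KC, log2 fold change -1.17 ± 0.14). Neither Treml4 nor Nr4a1, a receptor and a nuclear factor of nonclassical monocytes, passed. Treml4 averaged 1005 ± 183 CPM in Cx3cr1pos HFD and 1214 ± 98.3 CPM in STD KC. Nr4a1 averaged 329 ± 144 CPM in Cx3cr1pos HFD and 265 ± 62.7 CPM in STD KC.

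Lipid-associated macrophage genes were higher in Cx3cr1pos HFD. Of 22 tested, 16 rose, 1 fell and 5 did not pass (median log2 fold change 1.42). Trem2 (ENSMUSG00000023992), the lipid receptor that gives these cells their usual name, stood at 522, 509, 473 and 719 CPM in Cx3cr1pos HFD, against 73, 72.6 and 58.4 CPM in STD KC. Spp1 (ENSMUSG00000029304), osteopontin, stood at 487, 246, 307 and 583 CPM in Cx3cr1pos HFD, against 9.86, 4.48 and 2.22 CPM in STD KC. Gpnmb (ENSMUSG00000029816), a glycoprotein of lysosome-rich macrophages, stood at 1474, 1513, 1626 and 3845 CPM in Cx3cr1pos HFD, against 80.5, 11.6 and 10.8 CPM in STD KC. The groups did not overlap for any of the 3 genes, which was a condition for naming them. Gpnmb and Trem2 were highest in Cx3cr1pos HFD hfd2, and std1 held the highest Gpnmb and Spp1 levels of the lean libraries. The log2 fold changes were 3.05 ± 0.19 for Trem2 (adjusted p = 7.4e-06), 6.22 ± 0.59 for Spp1 (adjusted p = 0.00011) and 5.98 ± 1.02 for Gpnmb (adjusted p = 0.0047, with values from 5.49 to 7.59 over the fits without 1 library).

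The tetraspanins Cd63 (ENSMUSG00000025351) and Cd9 (ENSMUSG00000030342), membrane organisers of endosomes and the cell surface, were both higher in every Cx3cr1pos HFD library. Cd63 averaged 390.1 ± 31.1 CPM in Cx3cr1pos HFD and 9.03 ± 5.41 CPM in STD KC (log2 fold change 5.45 ± 0.37, adjusted p = 1.1e-05). Cd9 averaged 274 ± 45 CPM in Cx3cr1pos HFD and 36.3 ± 4.84 CPM in STD KC (log2 fold change 2.94 ± 0.18, adjusted p = 6.5e-06). Mmp12, the macrophage elastase, averaged 1338 ± 283 CPM in Cx3cr1pos HFD and 49.2 ± 44.1 CPM in STD KC (log2 fold change 4.79 ± 0.61, adjusted p = 0.00063). Further rises, as log2 fold changes, were 4.55 ± 0.31 for the aminopeptidase Anpep, 5.02 ± 0.82 for Atp6v0d2, a subunit of the lysosomal proton pump with its highest level in hfd2, and 1.81 ± 0.12 for the actin-capping protein gene Capg. Plin2, which coats lipid droplets, averaged 1724 ± 144 CPM in Cx3cr1pos HFD and 597 ± 64.1 CPM in STD KC (log2 fold change 1.54 ± 0.13, adjusted p = 4e-05). Lgals3, galectin-3, averaged 1029 ± 198 CPM in Cx3cr1pos HFD and 419 ± 35.1 CPM in STD KC (log2 fold change 1.31 ± 0.15). Smaller rises were those of Apoe, the apolipoprotein that carries cholesterol from macrophages (log2 fold change 0.83 ± 0.15, adjusted p = 0.0031), and Lpl, lipoprotein lipase (log2 fold change 0.88 ± 0.20, adjusted p = 0.0096, not passing without std2, and highest in hfd2). Cd36, a fatty acid receptor, passed with 1.15 ± 0.36 (adjusted p = 0.039) but not without std2, std3 or Cx3cr1pos HFD hf2 or hfd2. Cathepsin L, Ctsl, was the member that fell (log2 fold change -0.69 ± 0.19, adjusted p = 0.02), and it did not pass without std1, std2 or Cx3cr1pos HFD hf2.

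The Spp1 and Mmp12 promoters are shown because they are the 2 of 15 lipid-associated genes in the table with GAGGAAGT. This is a core letter string of PU.1 sites. At least 1 window held it in 6.10% of genes that rose, 3.91% of those that fell and 4.10% of those tested. Counted per window, it stood in 3.20% of all windows. Spp1 and Mmp12 each have another window without a match, not printed. Bases -150 to -1 are given, Spp1 on the plus strand at chr5:104434961-104435110 and Mmp12 on the plus strand at chr9:7344247-7344396, with the match in capitals (on the opposite strand in Mmp12).
Spp1: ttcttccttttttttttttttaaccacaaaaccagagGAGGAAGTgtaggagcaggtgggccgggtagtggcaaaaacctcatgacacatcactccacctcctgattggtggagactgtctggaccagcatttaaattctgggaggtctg
Mmp12: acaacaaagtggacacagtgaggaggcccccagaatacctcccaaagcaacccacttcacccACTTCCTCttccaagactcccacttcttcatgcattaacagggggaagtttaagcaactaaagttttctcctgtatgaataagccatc

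MHC class II genes were higher in Cx3cr1pos HFD. Of 16 tested, 12 rose, 1 fell and 3 did not pass (median log2 fold change 1.25). These genes display peptides to CD4 T cells, and the set is switched on by the coactivator CIITA. H2-Aa (ENSMUSG00000036594), an alpha chain, stood at 10375, 10475, 12979 and 9009 CPM in Cx3cr1pos HFD, against 3348, 3073 and 3597 CPM in STD KC. H2-Eb1 (ENSMUSG00000060586), a beta chain, stood at 6589, 5754, 8378 and 5067 CPM in Cx3cr1pos HFD, against 1707, 1534 and 1723 CPM in STD KC. Every Cx3cr1pos HFD library lay above every STD KC library for both genes, with hf3 the highest for H2-Aa. The log2 fold changes were 1.69 ± 0.14 for H2-Aa (adjusted p = 3.8e-05), 1.97 ± 0.17 for H2-Eb1 (adjusted p = 4e-05) and 1.78 ± 0.17 for H2-Ab1, the partner chain of H2-Aa (adjusted p = 8.2e-05). Ciita averaged 163 ± 25.2 CPM in Cx3cr1pos HFD and 66.2 ± 6.46 CPM in STD KC (log2 fold change 1.31 ± 0.14, adjusted p = 0.00011). The invariant chain Cd74 averaged 59546 ± 8657 CPM in Cx3cr1pos HFD and 26529 ± 2414 CPM in STD KC (log2 fold change 1.18 ± 0.14). The peptide editors H2-DMa and H2-DMb1 rose by 0.62 ± 0.11 and 0.85 ± 0.10 on the log2 scale. H2-Oa, a modulator of the editors used by B cells, averaged 12.5 ± 2.39 CPM in Cx3cr1pos HFD and 1.94 ± 0.672 CPM in STD KC (log2 fold change 2.70 ± 0.27, adjusted p = 8.9e-05). H2-Eb2 averaged 1.44 ± 0.771 CPM in Cx3cr1pos HFD and 0.0104 ± 0.0181 CPM in STD KC, and each STD KC library was under 3 counts, so no fold is given. Markers of B cells, which express class II genes, were higher too, as given below. Of 14 dendritic cell markers, 5 were higher and 2 lower. The part of either cell type in the class II values was not tested. Cd86, a costimulatory ligand, was the member that fell (371 ± 76.8 CPM in Cx3cr1pos HFD and 628 ± 27.9 CPM in STD KC, log2 fold change -0.74 ± 0.17, adjusted p = 0.0098). Reads of the H2 genes can be shared with close copies, so the split between members is uncertain. Of 18 genes of MHC class I presentation, 1 rose and 2 fell, 16.7% called against 29.8% of all genes tested. B2m, the light chain of class I molecules, averaged 4469.9 ± 336 CPM in Cx3cr1pos HFD and 4046 ± 303 CPM in STD KC (adjusted p = 0.33).

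The promoters of H2-Aa and H2-Eb1 are shown for the Y box, the CCAAT element of class II promoters bound by NF-Y and searched as CTGATTGG on both strands. It was found in the windows of 4 of the 11 class II presentation genes in the table (H2-Aa, H2-Eb1, H2-Eb2 and H2-Oa). The same letters were found about as often in cholesterol synthesis genes, in 6 of 16, and in 3 of 15 lipid-associated genes. Counted per gene, they stood in 6.51% of genes tested, 6.03% of genes that rose and 5.64% of those that fell. Counted per window, they stood in 4.10% of all windows. The Spp1 stretch above holds the same letters in lower case. Bases -150 to -1 are given, H2-Aa on the minus strand at chr17:34287824-34287973 and H2-Eb1 on the plus strand at chr17:34305717-34305866, with the match in capitals. It began at base -51 in H2-Aa and at base -62 in H2-Eb1.
H2-Aa: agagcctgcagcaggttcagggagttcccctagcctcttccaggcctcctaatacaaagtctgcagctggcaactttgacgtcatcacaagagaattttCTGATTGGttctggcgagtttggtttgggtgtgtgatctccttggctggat
H2-Eb1: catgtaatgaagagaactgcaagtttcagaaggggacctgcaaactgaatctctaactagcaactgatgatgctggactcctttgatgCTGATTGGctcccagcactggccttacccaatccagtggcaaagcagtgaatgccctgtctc

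**Figure D3:**
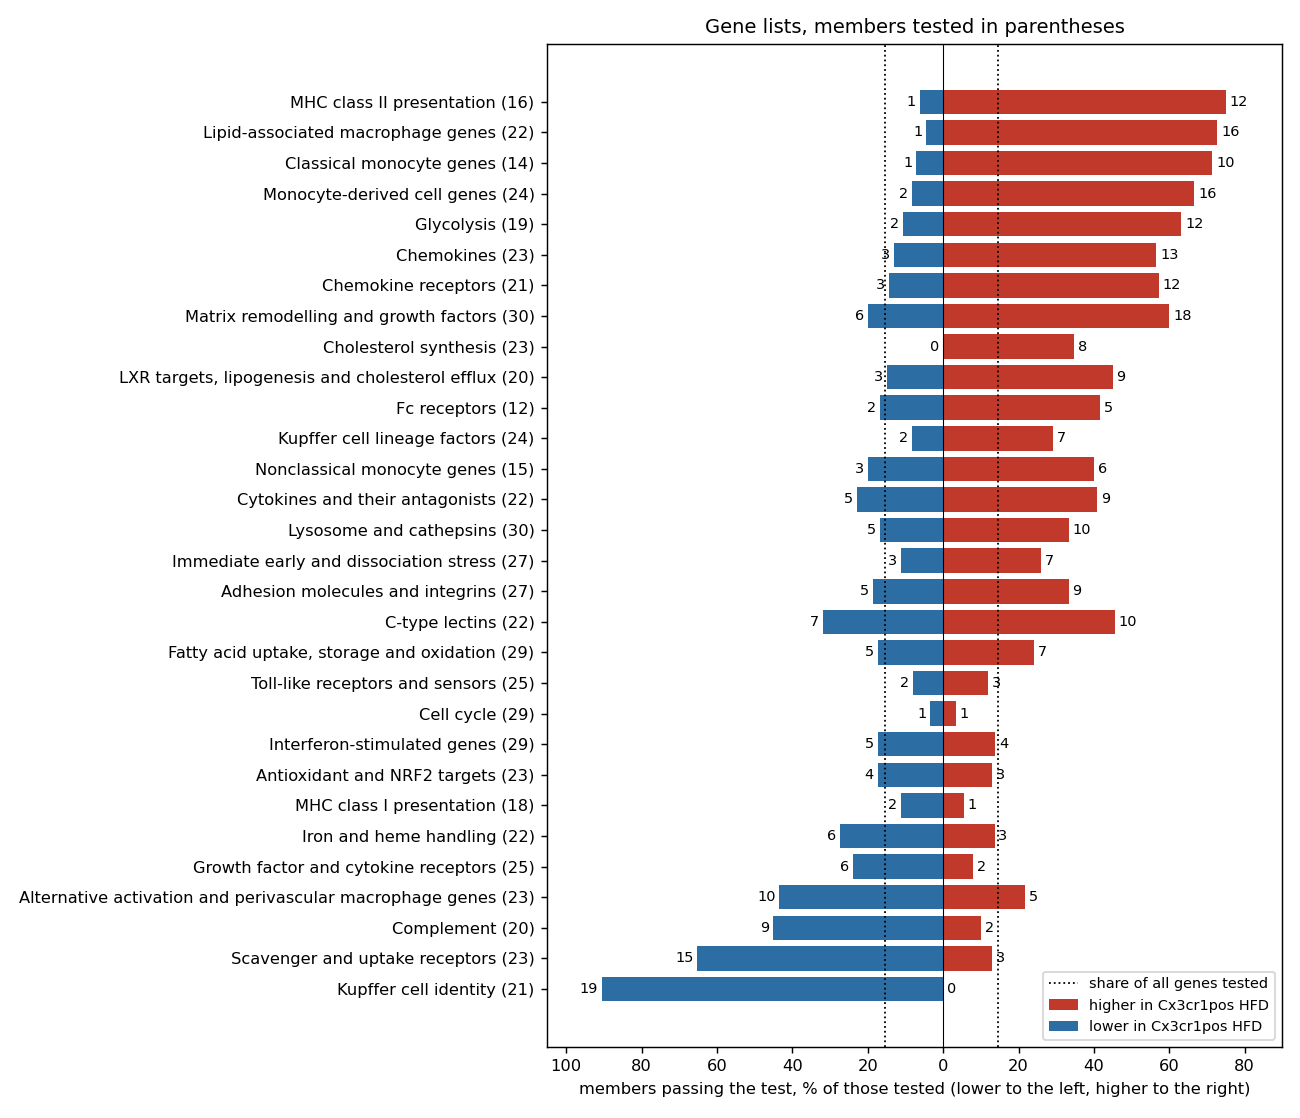
Share of the tested members of each gene list that passed (horizontal axis, %), lower in Cx3cr1pos HFD to the left and higher to the right, with counts at the bars, the number tested in parentheses and dotted lines at the shares of all genes tested. MHC class II presentation (12 of 16 higher) stands at the top and Kupffer cell identity (19 of 21 lower) at the bottom.

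Complement genes, which macrophages express for opsonisation and lysis of microbes, were lower more often than higher. Of 20 tested (21 listed) 9 fell, 2 rose and 9 did not pass (median log2 fold change -0.81), 55% called against 29.8% of all genes tested. C4b (ENSMUSG00000073418), a component of the classical and lectin pathways, stood at 29.1, 21.9, 26.4 and 66.4 CPM in Cx3cr1pos HFD, against 929.9, 790.1 and 647 CPM in STD KC. C2 (ENSMUSG00000024371), its partner in the classical convertase, stood at 2.03, 1.88, 3.13 and 4.02 CPM in Cx3cr1pos HFD, against 58.3, 58 and 56.7 CPM in STD KC. Both were lower in each Cx3cr1pos HFD library, C4b by 21.5-fold (adjusted p = 4.7e-05) and C2 by 20.5-fold (adjusted p = 5.7e-06), and hfd2 held the highest C4b level of its group. Properdin, Cfp, which stabilises the alternative pathway convertase, averaged 1980.1 ± 177 CPM in Cx3cr1pos HFD and 5520.3 ± 239.9 CPM in STD KC (log2 fold change -1.46 ± 0.12, adjusted p = 3.1e-05). Among the C1q chains, which did not pass, C1qa averaged 895 ± 170.2 CPM in Cx3cr1pos HFD and 1136 ± 186 CPM in STD KC and C1qb averaged 7395 ± 838 CPM in Cx3cr1pos HFD and 8036 ± 531 CPM in STD KC. C5ar1, the receptor for the anaphylatoxin C5a, rose (1103 ± 257 CPM in Cx3cr1pos HFD and 371 ± 81.2 CPM in STD KC, log2 fold change 1.57 ± 0.20), as did Itgax, which is also a complement receptor subunit.

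Of 22 iron and heme genes tested (23 listed), 6 fell, 3 rose and 13 did not pass, 40.9% called against 29.8% of all genes tested. Slc40a1 (ENSMUSG00000025993), ferroportin, the exporter of iron from macrophages, stood at 2770.1, 7391, 2626 and 5454 CPM in Cx3cr1pos HFD, against 18024, 16676 and 15592 CPM in STD KC. Hmox1 (ENSMUSG00000005413), heme oxygenase, stood at 732, 1339.8, 909.8 and 1309 CPM in Cx3cr1pos HFD, against 3250.4, 2439 and 1781 CPM in STD KC. The groups did not overlap for either gene, with log2 fold changes of -1.85 ± 0.35 (adjusted p = 0.0032) and -1.19 ± 0.26 (adjusted p = 0.0077). The heme transporter Slc48a1 (log2 fold change -1.15 ± 0.11) and biliverdin reductase B, Blvrb (log2 fold change -0.99 ± 0.14), fell with them. The ferritin genes Fth1 and Ftl1 did not pass. Fth1 averaged 6116 ± 683 CPM in Cx3cr1pos HFD and 5748 ± 169 CPM in STD KC. Ftl1 averaged 1338 ± 132 CPM in Cx3cr1pos HFD and 1419.5 ± 30.9 CPM in STD KC.

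Scavenger and uptake receptors were lower for 15 of 23 tested members (25 listed), with 3 higher and 5 not passing (median log2 fold change -1.03). Timd4, Cd163, Marco and Cd5l are also on the identity list, and Timd4 is a sort gene. The mannose receptor gene Mrc1 averaged 588 ± 153 CPM in Cx3cr1pos HFD and 1280.0 ± 118 CPM in STD KC (log2 fold change -1.10 ± 0.20). Stab2, stabilin-2, a hyaluronan receptor, averaged 168 ± 59 CPM in Cx3cr1pos HFD and 657 ± 75 CPM in STD KC (log2 fold change -1.94 ± 0.27). Mrc1 and Stab2 are expressed by sinusoidal endothelium too, whose markers were lower as well, as given below. Gas6, a bridging ligand of apoptotic cells, fell by 1.63 ± 0.29 on the log2 scale. Clec7a, the beta-glucan receptor, was among the members that rose (851 ± 123 CPM in Cx3cr1pos HFD and 335 ± 43.3 CPM in STD KC, log2 fold change 1.36 ± 0.16). Mertk, a receptor of apoptotic cells, averaged 432 ± 120.5 CPM in Cx3cr1pos HFD and 561 ± 66.2 CPM in STD KC and passed only without Cx3cr1pos HFD hfd2. Msr1, a receptor of modified lipoproteins, averaged 900.2 ± 146 CPM in Cx3cr1pos HFD and 1127 ± 68.8 CPM in STD KC and did not pass.

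Of 22 C-type lectins, 10 rose and 7 fell, including the lectins named above, 77.3% called against 29.8% of all genes tested. Clec4e, which encodes Mincle, a receptor of mycobacterial glycolipids, averaged 12.3 ± 4.44 CPM in Cx3cr1pos HFD and 0.452 ± 0.103 CPM in STD KC (log2 fold change 4.75 ± 0.36, adjusted p = 1.9e-05). Clec5a, a DAP12-coupled receptor, averaged 46.5 ± 10.2 CPM in Cx3cr1pos HFD and 3.95 ± 0.796 CPM in STD KC (log2 fold change 3.56 ± 0.20, adjusted p = 5.3e-06). Cd209f, a SIGN-family lectin in a family whose reads can be shared, averaged 0.529 ± 0.521 CPM in Cx3cr1pos HFD and 37.3 ± 15.2 CPM in STD KC (log2 fold change -6.13 ± 0.67, adjusted p = 0.00018). Lectins thus differed in both directions, with activating receptors among those that rose and identity genes among those that fell.

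Chemokine receptors rose more often than they fell. Of 21 on the list, the sort gene Cx3cr1 included, 12 rose, 3 fell and 6 did not pass (median log2 fold change 1.17). Ccr1, a receptor of inflammatory chemokines, averaged 109.7 ± 46.6 CPM in Cx3cr1pos HFD and 4.53 ± 1.57 CPM in STD KC (log2 fold change 4.60 ± 0.37, adjusted p = 2.6e-05). Cxcr4, which retains cells in the marrow, averaged 29.2 ± 8.69 CPM in Cx3cr1pos HFD and 3.38 ± 0.887 CPM in STD KC (log2 fold change 3.12 ± 0.28). Ccr7, which guides cells to lymph nodes, averaged 36 ± 11 CPM in Cx3cr1pos HFD and 2.05 ± 1.05 CPM in STD KC (log2 fold change 4.14 ± 0.42). Among the receptors that fell were Fpr1, a receptor of bacterial formyl peptides (263 ± 39.1 CPM in Cx3cr1pos HFD and 735 ± 106 CPM in STD KC, log2 fold change -1.47 ± 0.15), and Ccr3, the eotaxin receptor (log2 fold change -1.70 ± 0.33).

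Chemokines rose more often than they fell. Of 23, 13 rose and 3 fell (median log2 fold change 1.07), and the number that rose was 7 without std2 and 8 without std3. Ccl9 (ENSMUSG00000019122), a CCR1 ligand of mice, stood at 285, 242, 271 and 418 CPM in Cx3cr1pos HFD, against 20.7, 10.6 and 10.7 CPM in STD KC. Cxcl13 (ENSMUSG00000023078), which attracts B cells, stood at 28.1, 5.31, 16.6 and 8.23 CPM in Cx3cr1pos HFD, against 501, 610.3 and 587 CPM in STD KC. The groups were separate for both, Ccl9 higher by 4.46 ± 0.32 on the log2 scale (adjusted p = 1.6e-05) and Cxcl13 lower (log2 fold change -5.30 ± 0.50, adjusted p = 0.00011). Ccl24, an eosinophil chemoattractant, was lower too (36.2 ± 14.1 CPM in Cx3cr1pos HFD and 299.9 ± 40 CPM in STD KC, log2 fold change -3.03 ± 0.28). Ccl5, a chemokine also made by T and NK cells, averaged 110.2 ± 69.2 CPM in Cx3cr1pos HFD and 16.8 ± 3.44 CPM in STD KC (log2 fold change 2.72 ± 0.41), and library hf3 stood apart from the other Cx3cr1pos HFD libraries at 214 CPM. The neutrophil attractant Cxcl2 and the inflammatory chemokines Ccl3 and Ccl4 had log2 fold changes of 1.03 ± 0.28, 1.07 ± 0.28 and 1.11 ± 0.30, calls that were lost without std2 or std3. Ccl2, the main CCR2 ligand, averaged 92.1 ± 46 CPM in Cx3cr1pos HFD and 117 ± 18.8 CPM in STD KC and did not pass.

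Cytokines and their antagonists moved in both directions, 9 of 22 tested higher and 5 lower (24 listed), 63.6% called against 29.8% of all genes tested. Il1b (ENSMUSG00000027398), interleukin-1 beta, stood at 184, 201, 342 and 83.2 CPM in Cx3cr1pos HFD, against 565, 790.4 and 884 CPM in STD KC. Il1rn (ENSMUSG00000026981), the interleukin-1 receptor antagonist, stood at 411, 421, 432 and 402 CPM in Cx3cr1pos HFD, against 103, 98.8 and 103 CPM in STD KC. The agonist was lower in every Cx3cr1pos HFD library (log2 fold change -1.88 ± 0.37, adjusted p = 0.0041), a call lost when no filter on low counts was applied, and the antagonist was higher in every one (log2 fold change 2.05 ± 0.10, adjusted p = 2.9e-06). The other agonist gene, Il1a, was lower too (log2 fold change -1.32 ± 0.19). Il6, interleukin-6, averaged 2.55 ± 1.39 CPM in Cx3cr1pos HFD and 21.6 ± 3.62 CPM in STD KC (log2 fold change -3.06 ± 0.38, adjusted p = 0.0003). Csf1, the macrophage growth factor, averaged 8.42 ± 2.45 CPM in Cx3cr1pos HFD and 25.1 ± 4.64 CPM in STD KC (log2 fold change -1.56 ± 0.22), a call lost in the fit of all 12 liver libraries. Among cytokines that rose, oncostatin M, Osm, averaged 14 ± 3.80 CPM in Cx3cr1pos HFD and 0.196 ± 0.101 CPM in STD KC (log2 fold change 6.16 ± 0.41, adjusted p = 1.1e-05). Gdf15, a stress cytokine, averaged 47.8 ± 18.3 CPM in Cx3cr1pos HFD and 7.34 ± 3.75 CPM in STD KC (log2 fold change 2.71 ± 0.38). Tnf averaged 29.5 ± 15 CPM in Cx3cr1pos HFD and 9.13 ± 1.46 CPM in STD KC (log2 fold change 1.69 ± 0.41, adjusted p = 0.012) and did not pass without std2 or with no filter.

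Receptors of growth factors and cytokines showed 2 rises and 6 falls among 25 tested (26 listed), 32% called against 29.8% of all genes tested. Tgfbr1, a TGF-beta receptor, averaged 369 ± 30.6 CPM in Cx3cr1pos HFD and 111 ± 8.48 CPM in STD KC (log2 fold change 1.75 ± 0.12, adjusted p = 1.4e-05). Csf1r, the CSF1 receptor on which macrophages depend, averaged 3431 ± 318 CPM in Cx3cr1pos HFD and 6447 ± 410.1 CPM in STD KC (log2 fold change -0.89 ± 0.13, adjusted p = 0.00068). Ifngr1, a chain of the interferon-gamma receptor, averaged 662 ± 6.54 CPM in Cx3cr1pos HFD and 1138 ± 77.4 CPM in STD KC (log2 fold change -0.77 ± 0.10). Both Csf1 and its receptor gene were thus lower in Cx3cr1pos HFD. In HFD KC hfd1, hfd2, hf1, hf2 and hf3, Csf1 stood at 29.1, 14.3, 3.45, 3.35 and 20.3 CPM. Summed sinusoidal endothelial markers stood at 6710, 3174, 1884, 1934 and 7432 CPM in the same libraries. The part of endothelial cells in the Csf1 values was not tested. Of 25 Toll-like receptors and sensors, 3 rose and 2 fell (20% called), with a log2 fold change of 1.64 ± 0.17 for Tlr1, a partner of TLR2. Without Cx3cr1pos HFD hfd2, 5 rose and 7 fell, the number that fell was 4 by DESeq2's test or when scaled to library totals, and it was 1 without std1, std2 or Cx3cr1pos HFD hf1. Tlr4, the LPS receptor, averaged 128 ± 27.9 CPM in Cx3cr1pos HFD and 158 ± 24.3 CPM in STD KC and passed only without Cx3cr1pos HFD hfd2.

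Matrix remodelling and growth factor genes were higher for 18 of 30 tested members (31 listed), lower for 6 and not passing for 6 (median log2 fold change 1.24). Mmp13 (ENSMUSG00000050578), an interstitial collagenase, stood at 247, 353, 211 and 311 CPM in Cx3cr1pos HFD, against 20.9, 10.7 and 9.72 CPM in STD KC. Adam8 (ENSMUSG00000025473), a membrane protease of leukocytes, stood at 132, 85.7, 118 and 322 CPM in Cx3cr1pos HFD, against 10.4, 3.82 and 3.45 CPM in STD KC. All Cx3cr1pos HFD libraries exceeded all STD KC libraries, by 4.37 ± 0.33 for Mmp13 and 4.84 ± 0.67 for Adam8 on the log2 scale (adjusted p = 1.9e-05 and 0.0012). Mmp14, a membrane-bound collagenase, averaged 72.1 ± 40.9 CPM in Cx3cr1pos HFD and 9.68 ± 0.621 CPM in STD KC (log2 fold change 2.89 ± 0.42). Plaur, the urokinase receptor, averaged 235 ± 64.7 CPM in Cx3cr1pos HFD and 40.5 ± 7.42 CPM in STD KC (log2 fold change 2.54 ± 0.22). Thbs1, thrombospondin-1, an activator of latent TGF-beta, averaged 22.5 ± 9.43 CPM in Cx3cr1pos HFD and 2.29 ± 0.608 CPM in STD KC (log2 fold change 3.32 ± 0.38). The rises thus covered collagenases, a surface protease receptor and matricellular proteins. Pdgfb, a growth factor for stellate cells, averaged 40 ± 18.3 CPM in Cx3cr1pos HFD and 13 ± 1.42 CPM in STD KC (log2 fold change 1.62 ± 0.36), a call lost with no filter on low counts.

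Members of the same list that fell included Mmp9, the gelatinase, at 0.483 ± 0.342 CPM in Cx3cr1pos HFD and 13.7 ± 9.37 CPM in STD KC (log2 fold change -4.75 ± 0.59). Timp3, a metalloprotease inhibitor, averaged 23.6 ± 7.95 CPM in Cx3cr1pos HFD and 128 ± 41.2 CPM in STD KC (log2 fold change -2.41 ± 0.31). Sparc, a matrix protein, averaged 101 ± 22.8 CPM in Cx3cr1pos HFD and 333 ± 93.5 CPM in STD KC (log2 fold change -1.70 ± 0.21). Timp3 and Sparc are expressed by endothelial and stellate cells too, and the endothelial markers were lower, as given below. Of 11 stellate cell and fibroblast markers tested (12 listed), 3 fell, none rose and 8 did not pass, a share of 27.3% called against 29.8% of all genes. They summed to 155 to 202 CPM in Cx3cr1pos HFD and 365 to 418 CPM in STD KC, and 1 of them, the matrix protein gene Ecm1, made up most of both sums (128 ± 23.4 CPM in Cx3cr1pos HFD and 325 ± 30.2 CPM in STD KC). The part of such cells was not tested. Hbegf, an EGF receptor ligand, averaged 22.2 ± 5.07 CPM in Cx3cr1pos HFD and 70.5 ± 8.62 CPM in STD KC (log2 fold change -1.65 ± 0.19). Igf1, insulin-like growth factor 1, averaged 692 ± 200.2 CPM in Cx3cr1pos HFD and 891 ± 62.9 CPM in STD KC and did not pass. Of 27 adhesion genes tested (28 listed), 9 rose and 5 fell, 51.9% called against 29.8% of all genes tested. Log2 fold changes were 2.73 ± 0.36 for the laminin-binding integrin Itga6, which was highest in hf1, and 1.07 ± 0.10 for the VLA-4 chain Itga4.

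Genes of lipid handling changed in both directions. Of 20 LXR target, lipogenesis and efflux genes, 9 rose (5 without std2) and 3 fell, 60% called against 29.8% of all genes tested. Apoc1 (ENSMUSG00000040564), an apolipoprotein encoded beside Apoe, stood at 46.3, 99.9, 60.8 and 189.7 CPM in Cx3cr1pos HFD, against 970.2, 1029 and 1189 CPM in STD KC. It was lower in every Cx3cr1pos HFD library (log2 fold change -3.38 ± 0.46, adjusted p = 0.00079), while its neighbour Apoe was higher, at 20280.0 ± 2734 CPM in Cx3cr1pos HFD and 11584 ± 1675 CPM in STD KC. Angptl4, an inhibitor of lipoprotein lipase, averaged 41.6 ± 3.54 CPM in Cx3cr1pos HFD and 6.35 ± 1.27 CPM in STD KC (log2 fold change 2.72 ± 0.16, adjusted p = 5.5e-06). Apoc2, a cofactor of that lipase in the same gene cluster, averaged 60.9 ± 4.35 CPM in Cx3cr1pos HFD and 16.1 ± 1.44 CPM in STD KC (log2 fold change 1.93 ± 0.12). Abca1, the cholesterol exporter, averaged 249.5 ± 26.5 CPM in Cx3cr1pos HFD and 143 ± 12.5 CPM in STD KC (log2 fold change 0.82 ± 0.13).

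Of 23 cholesterol synthesis genes tested (24 listed), 8 rose and 0 fell, 34.8% called against 29.8% of all genes tested. Of all genes tested, 14.5% were higher. The number that rose was 3 without std2 or Cx3cr1pos HFD hf1 and 4 without std1. It was 5 without std3 or Cx3cr1pos HFD hf2, and 5 when scaled to library totals. Sqle, squalene epoxidase, averaged 14.7 ± 4.95 CPM in Cx3cr1pos HFD and 4.64 ± 1.27 CPM in STD KC (log2 fold change 1.67 ± 0.28, adjusted p = 0.0018). Of 29 genes of fatty acid uptake, storage and oxidation, 7 rose and 5 fell (41.4% called against 29.8% of all genes tested). Without std3 these counts were 4 and 2, and the number that fell was 2 to 3 without std1, std2 or Cx3cr1pos HFD hf1 or hf3 and 9 without Cx3cr1pos HFD hfd2. Fabp5, a fatty acid binding protein of macrophages, averaged 31 ± 6.50 CPM in Cx3cr1pos HFD and 3.65 ± 1.07 CPM in STD KC (log2 fold change 3.11 ± 0.26, adjusted p = 3.3e-05). Slc27a1, a fatty acid transporter, averaged 43.7 ± 17.8 CPM in Cx3cr1pos HFD and 13.7 ± 3.53 CPM in STD KC (log2 fold change 1.70 ± 0.32). The related binding protein gene Fabp7 was lower instead, at 145 ± 60.3 CPM in Cx3cr1pos HFD and 391 ± 73.5 CPM in STD KC (log2 fold change -1.41 ± 0.31), a call lost with no filter. Mgll, monoacylglycerol lipase, averaged 17.6 ± 4.91 CPM in Cx3cr1pos HFD and 40.6 ± 9.26 CPM in STD KC (log2 fold change -1.19 ± 0.23) and did not pass in the fits of 12 or 17 libraries. It stood at 69.9, 26, 19.9, 15.4 and 68.8 CPM in HFD KC hfd1, hfd2, hf1, hf2 and hf3. Like Csf1, it was highest in the 2 HFD KC libraries with the most endothelial markers, hfd1 and hf3. The part of endothelial cells was not tested.

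Of 19 glycolysis genes, 12 rose (7 without std2), 2 fell and 5 did not pass, with a median log2 fold change of 0.49. Ldha, lactate dehydrogenase, averaged 728 ± 67.8 CPM in Cx3cr1pos HFD and 398 ± 18.5 CPM in STD KC (log2 fold change 0.88 ± 0.11, adjusted p = 0.00031). Pkm, pyruvate kinase, averaged 1337 ± 162 CPM in Cx3cr1pos HFD and 735 ± 41.1 CPM in STD KC (log2 fold change 0.88 ± 0.13). Hk3, a hexokinase of myeloid cells, fell (334 ± 73.6 CPM in Cx3cr1pos HFD and 661 ± 43.8 CPM in STD KC, log2 fold change -0.96 ± 0.18).

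Lysosome genes showed 10 rises and 5 falls among 30 (3 falls without std1 and 8 without Cx3cr1pos HFD hfd2), 50% called against 29.8% of all genes tested. Gla, alpha-galactosidase, averaged 99.1 ± 20.4 CPM in Cx3cr1pos HFD and 23.6 ± 3.19 CPM in STD KC (log2 fold change 2.09 ± 0.20, adjusted p = 6.4e-05). Atp6v0a1, a proton pump subunit, averaged 208 ± 52.6 CPM in Cx3cr1pos HFD and 90.7 ± 8.87 CPM in STD KC (log2 fold change 1.22 ± 0.20). Ctsf, cathepsin F, lowest in hf3, averaged 31.5 ± 5.42 CPM in Cx3cr1pos HFD and 117 ± 9.03 CPM in STD KC (log2 fold change -1.87 ± 0.15). The abundant cathepsins B and D did not pass. Ctsb averaged 32961 ± 3266 CPM in Cx3cr1pos HFD and 31616 ± 2403 CPM in STD KC. Ctsd averaged 8771 ± 3152 CPM in Cx3cr1pos HFD and 6228 ± 535 CPM in STD KC. Of 23 antioxidant and NRF2 target genes, 3 rose and 4 fell, 30.4% called against 29.8% of all genes tested. Slc7a11, the cystine transporter, averaged 15.5 ± 6.04 CPM in Cx3cr1pos HFD and 0.111 ± 0.0164 CPM in STD KC (log2 fold change 7.08 ± 0.42, adjusted p = 6.1e-06). Gpx1, glutathione peroxidase 1, averaged 2098 ± 99 CPM in Cx3cr1pos HFD and 3033 ± 201 CPM in STD KC (log2 fold change -0.52 ± 0.11).

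Genes outside the lists had some of the largest changes. Sema4d (ENSMUSG00000021451), a semaphorin of leukocytes, stood at 253, 229, 346 and 289.8 CPM in Cx3cr1pos HFD, against 4.82, 2.43 and 1.85 CPM in STD KC. Slc27a6 (ENSMUSG00000024600), a fatty acid transporter, stood at 0, 0.236, 0.0921 and 0.686 CPM in Cx3cr1pos HFD, against 21.4, 33 and 24.7 CPM in STD KC. Ptgis (ENSMUSG00000017969), prostacyclin synthase, stood at 0.546, 1.49, 0.276 and 1.11 CPM in Cx3cr1pos HFD, against 63.1, 65.9 and 58.7 CPM in STD KC. None of the groups overlapped, with log2 fold changes of 6.55 ± 0.35, -6.62 ± 0.60 and -6.13 ± 0.39 (adjusted p = 3.9e-06, 5.2e-05 and 8.2e-06). Also among the 15 largest rises were the orphan receptor gene Gpr141 (24.6 ± 11.7 CPM in Cx3cr1pos HFD and 0.187 ± 0.299 CPM in STD KC) and the adaptor gene Lat2 (181 ± 14.8 CPM in Cx3cr1pos HFD and 3.10 ± 1.34 CPM in STD KC). Myo5a, a myosin motor, averaged 54.3 ± 8.93 CPM in Cx3cr1pos HFD and 0.667 ± 0.270 CPM in STD KC. Alcam, an adhesion molecule, averaged 23.2 ± 9.95 CPM in Cx3cr1pos HFD and 0.340 ± 0.127 CPM in STD KC. Napsa, an aspartic protease, had a log2 fold change of 5.71 ± 0.38. The 15 largest falls included the syndecan Sdc2 (6.17 ± 2.86 CPM in Cx3cr1pos HFD and 109.9 ± 6.33 CPM in STD KC), the membrane glycoprotein Gpm6b (log2 fold change -4.25 ± 0.40) and the basement membrane protein Nid2 (log2 fold change -3.95 ± 0.31). Serpina1e, an antitrypsin gene of hepatocytes whose family members share reads, was also among them (log2 fold change -5.31 ± 0.99).

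Markers of other cell types moved with the groups. Sinusoidal endothelial markers were lower for 15 of 16 members, and none of the 16 averaged under 1 CPM in either group. Their summed level was 1349 to 2301 CPM in Cx3cr1pos HFD and 6524 to 9083 CPM in STD KC. Clec4g, an endothelial lectin, averaged 147 ± 34.3 CPM in Cx3cr1pos HFD and 645 ± 174 CPM in STD KC (log2 fold change -2.12 ± 0.21), and Tek, the angiopoietin receptor, had a log2 fold change of -2.52 ± 0.21. Hepatocyte markers were lower for 13 of 20 (8 without std2 and 4 without std3), with 1 higher. They summed to 228 to 366 CPM in Cx3cr1pos HFD and 379 to 675 CPM in STD KC, and albumin, Alb, averaged 24.2 ± 9.27 CPM in Cx3cr1pos HFD and 59.7 ± 17 CPM in STD KC.

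Lymphocyte markers ran the other way. B and plasma cell markers were higher for 10 of 12 tested (13 listed), and their sum was 3033, 1341, 1149 and 990.0 CPM in Cx3cr1pos HFD, against 364, 161 and 160 CPM in STD KC. Library hf1 held the highest sum, with no overlap of the groups. Cd79a, a component of the B cell receptor, averaged 44.4 ± 26.6 CPM in Cx3cr1pos HFD and 2.74 ± 0.131 CPM in STD KC (log2 fold change 4.01 ± 0.71). Ighm, the IgM heavy chain, averaged 737 ± 489 CPM in Cx3cr1pos HFD and 51.5 ± 60.8 CPM in STD KC (log2 fold change 3.84 ± 0.95, adjusted p = 0.023) and did not pass without std2, std3 or Cx3cr1pos HFD hfd2, with hf1 far above the other libraries. T and NK cell markers were higher for 16 of 18 tested (19 listed), at sums of 49.6 to 120.0 CPM in Cx3cr1pos HFD and 28.9 to 31.5 CPM in STD KC, with Cd3e, a T cell receptor chain, at 5.26 ± 3.35 CPM in Cx3cr1pos HFD and 1.13 ± 0.217 CPM in STD KC.

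Granulocyte and platelet markers were few. Of 13 neutrophil markers 7 had enough counts to test, 3 rose and 1 fell (57.1% of the 7, against 29.8% of all genes tested). The sums overlapped (107 to 136 CPM in Cx3cr1pos HFD and 110.5 to 134 CPM in STD KC). Csf3r alone made up most of both sums (96.2 to 104 CPM in Cx3cr1pos HFD and 93.6 to 109 CPM in STD KC). The overlap therefore says little about the other members. Mmp8 stood at 6.69 to 23.2 CPM in Cx3cr1pos HFD and 1.06 to 1.69 CPM in STD KC, and Mmp9 was lower in Cx3cr1pos HFD, as given above. Of the 13, 10 averaged under 1 CPM in Cx3cr1pos HFD and 9 in STD KC. Dendritic cell markers were higher for 5 of 14 and lower for 2, with sums of 364 to 459 CPM in Cx3cr1pos HFD and 374 to 520.1 CPM in STD KC. Bst2 was the largest part of the dendritic sums (208 to 251 CPM in Cx3cr1pos HFD and 203 to 276 CPM in STD KC). Pf4, a chemokine on the platelet list that macrophages make as well, rose (141 ± 22.8 CPM in Cx3cr1pos HFD and 39.2 ± 2.78 CPM in STD KC, log2 fold change 1.86 ± 0.14). In all, 3 of 6 tested platelet markers were higher and 0 lower, 50% called against 29.8% of all genes tested.

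Several genes above are also expressed by these cells. The lymphocyte receptor and cytokine genes Cxcr5, Ccr6 and Ltb were higher with the B cell markers, at log2 fold changes of 3.08 ± 0.73, 4.30 ± 0.67 and 3.72 ± 0.55. Eng, the endothelial coreceptor endoglin, was lower with the endothelial markers (log2 fold change -1.76 ± 0.26). The part of such cells or of their free RNA in these genes, and in Ccr7, H2-Oa, Stab2, Cdh5, Csf1, Mgll and Serpina1e, was not tested. Spp1 is on the list of 8 cholangiocyte markers, of which 6 averaged under 1 CPM in each group. The keratin genes Krt7 and Krt18, which define those cells, did not pass. Krt7 averaged 0.409 ± 0.129 CPM in Cx3cr1pos HFD and 0.285 ± 0.176 CPM in STD KC. Krt18 averaged 4.31 ± 1.35 CPM in Cx3cr1pos HFD and 2.67 ± 1.27 CPM in STD KC.

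**Figure D4:**
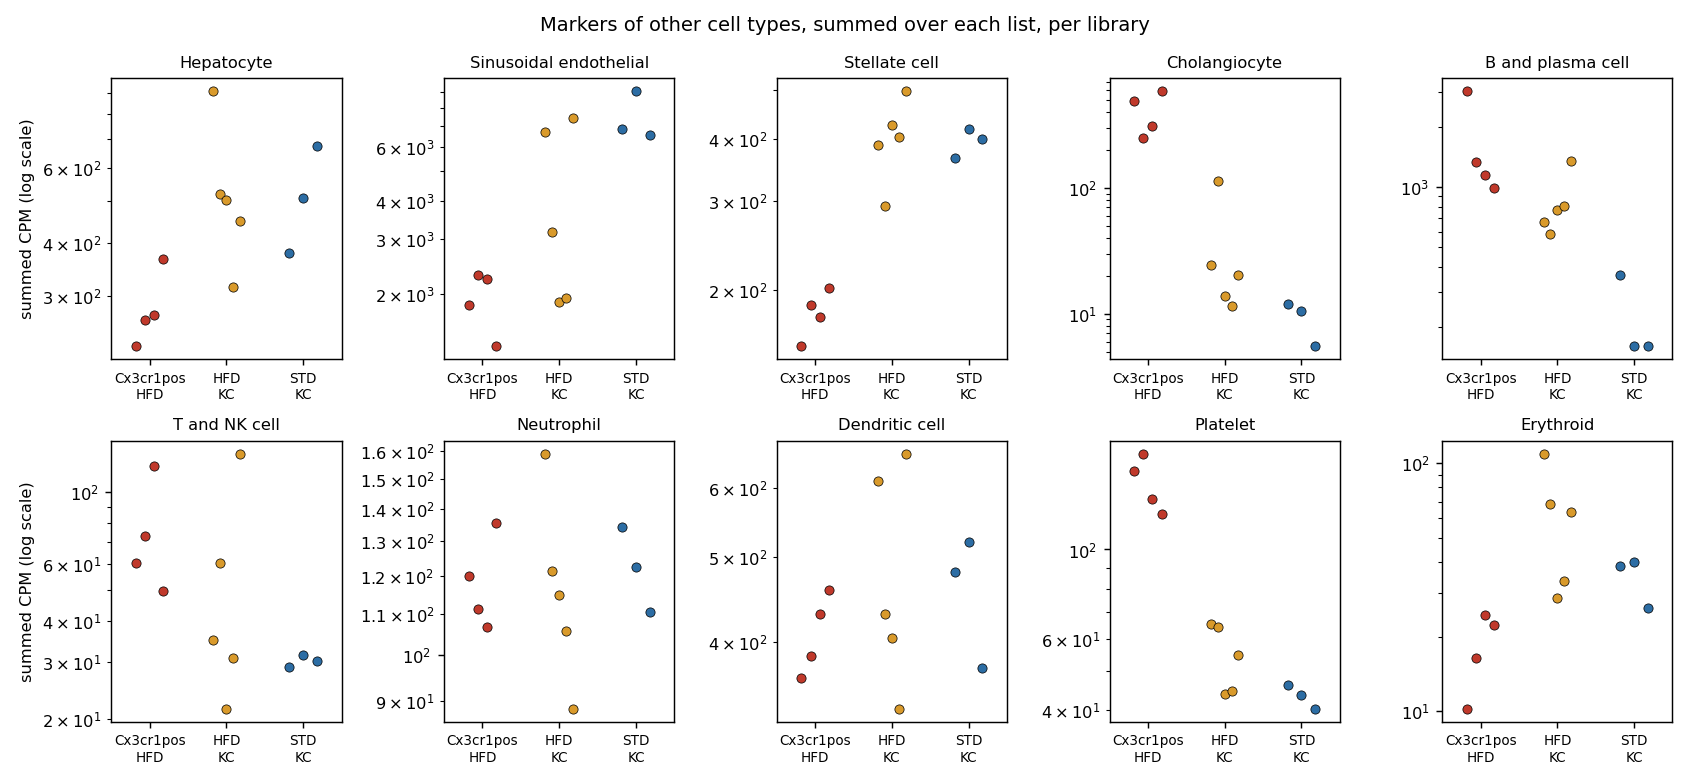
Summed CPM of 10 lists of markers of other cell types (log scale, vertical axis) in each library of Cx3cr1pos HFD, HFD KC and STD KC, left to right. Sinusoidal endothelial markers are lowest in Cx3cr1pos HFD (1349 to 2301 CPM) and highest in STD KC (6524 to 9083 CPM), B and plasma cell markers run the other way, and the HFD KC libraries spread between and beyond the groups.

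HFD KC was then placed on the line from STD KC (0%) to Cx3cr1pos HFD (100%) by the mean log2 CPM of each gene. Over the 4091 called genes the median position was 42.0%, at 46.6% for genes higher in Cx3cr1pos HFD and 38.6% for lower ones. Of these genes 51.7% lay from 0 to 50%, 35.1% from 50 to 100%, 9.63% below 0 and 3.67% above 100%. By HFD KC library, the median was lowest in hfd1 (25.1%), then hf3 (38.1%), hf2 (40.2%), hf1 (47.0%) and hfd2 (49.9%). It was 40% without hfd2, the library nearest to Cx3cr1pos HFD, 37% for the 2 libraries labelled frac_neg and 45.1% for the 3 labelled CD68. For genes lower in Cx3cr1pos HFD, the median was 15.2% in hfd1, 23.2% in hf3, 41.8% in hf2, 44.6% in hfd2 and 49.9% in hf1. For higher genes it was 36.0, 53.8, 39.5, 57.1 and 45.2% in the same order. Summed sinusoidal endothelial markers stood at 6710, 7432, 1934, 3174 and 1884 CPM in that order. The part of endothelial cells in the positions was not tested. These positions carry no test.

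The position differed by gene group. Called identity genes had a median of 10.8%, complement genes 12.8% and class II presentation genes -12.5%, a value below 0 meaning that HFD KC lay on the far side of STD KC. Lipid-associated genes had a median of 66.1%, cytokines 57.5%, glycolysis genes 57.4% and monocyte-derived genes 49.6%. Timd4 stood at 1613, 388, 1347, 1013 and 1218 CPM in HFD KC hfd1, hfd2, hf1, hf2 and hf3 (8.66%, or 2.32% without hfd2), with hfd2 the lowest library. Ccr2 stood at 41.9, 32.1, 14.7, 21.3 and 38.6 CPM in HFD KC hfd1, hfd2, hf1, hf2 and hf3 (28.4%), between the groups in every library. Marco stood at 1816, 490.0, 1950.5, 508 and 963 CPM in HFD KC hfd1, hfd2, hf1, hf2 and hf3, above its level in both groups in every library (-39.3%). H2-Aa stood at 2241, 4807, 1549, 3153 and 3716 CPM in HFD KC hfd1, hfd2, hf1, hf2 and hf3 (-13.2%), below the STD KC libraries in hfd1 and hf1 and below Cx3cr1pos HFD in all 5. Mmp12 stood at 664, 1411, 727, 1216 and 1689 CPM in HFD KC hfd1, hfd2, hf1, hf2 and hf3 (94.1%, or 92% without hfd2), within the range of Cx3cr1pos HFD in 3 of 5 libraries. Il1rn lay at 99.5%, level with Cx3cr1pos HFD. Tmem119, a gene of microglia in the brain, averaged 32.5 ± 18.9 CPM in Cx3cr1pos HFD and 0.890 ± 0.303 CPM in STD KC, and HFD KC lay level with STD KC (-1.60%).

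**Figure D5:**
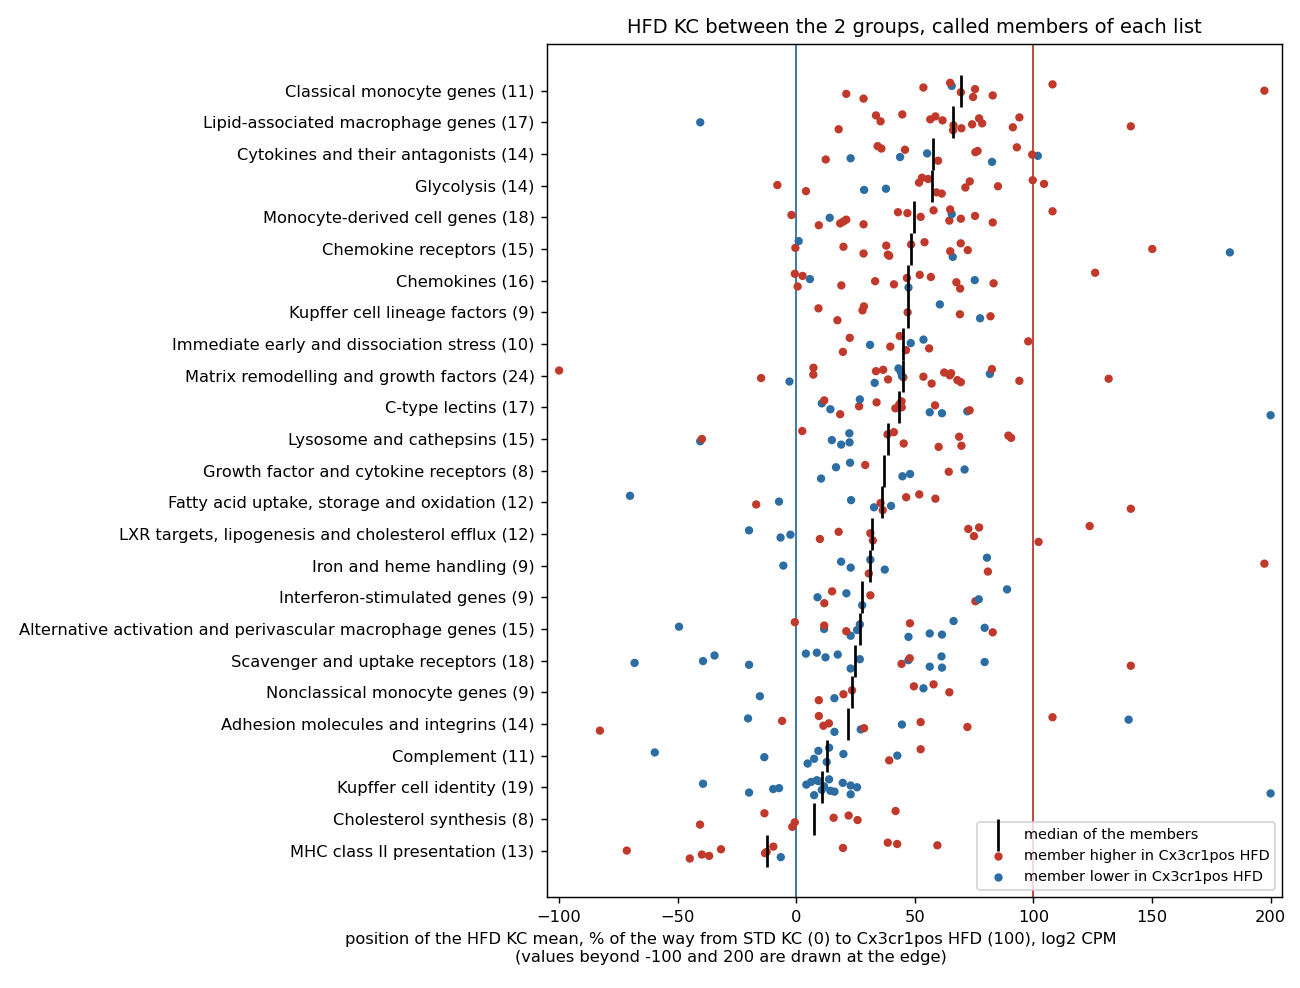
Position of the HFD KC mean on the log2 CPM line from STD KC (0%, blue line) to Cx3cr1pos HFD (100%, red line) for the called members of each list with at least 8 of them, lists of other cell types left out, 1 point per gene, red for genes higher and blue for genes lower in Cx3cr1pos HFD, with a black bar at the median and positions beyond the axis drawn at its ends. Medians of the lists drawn run from -12.5% for class II presentation to 69.4% for classical monocyte genes.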

How the data were processed

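Libraries were made with a SMARTer kit carrying unique molecular indexes and sequenced single-end on an Illumina HiSeq, per the labels' protocols. The whole-number counts per gene that the authors deposited were used as they stand. Per the submitters' processing notes, the tools were bcl2fastq, STAR 2.0.4b and Subread featureCounts 1.4.5. Whether the indexes were used to remove duplicates, and the genome build, are not given in the sources used here. Of 40824 rows, 276 repeated a gene identifier already present, and 40548 genes were kept.

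Genes were filtered with filterByExpr, scaled by TMM (factors 0.953 to 1.04) and tested with edgeR 4.0.16 in R 4.3.3 (glmQLFit, robust, and glmQLFTest, 4 libraries against 3). The adjusted p threshold was 0.05, and the biological coefficient of variation was 0.223. SE is the fold change divided by the root of F. On simulated counts for 13723 genes with 50 changed at each size, this test found 20% of genes changed 1.5-fold, 46% at 2-fold, 90% at 4-fold and 94% at 8-fold, with 7 false calls. The share of genes changed there was far below the 29.8% called in the data, so these rates need not hold for the comparison reported. HFD KC positions used log2 CPM with a prior count of 2. Alternatives were DESeq2 1.42.0, other scalings, filters and sample sets, the replicate number as a block, and leaving out each library.

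The libraries, 41 gene lists (712 symbols, 2 without a row) and lists of markers were chosen with earlier results of these data known. Named genes had to pass, average 20 CPM or more in 1 group and show no overlap of libraries: the 15 largest rises and falls, up to 5 per list by adjusted p, the sort genes, the 6 genes of at least 4-fold nearest to either group in HFD KC, and markers described as such. The 81 other genes named, among them Clec4f, Il1b, Runx3, Osm and Slc7a11, were named after their values were seen. Some genes of the lists are not reported here. Promoter windows are from RefSeq (10238 of the genes tested matched by symbol) and do not depend on the authors' build.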

Additional observations from a re-analysis of the deposited data

Results flagged for a closer look

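In 196 named genes, the highest or lowest library of a group of 4 or 5 was compared with the spread of the others, and 11 of 201 groups had a library far from the rest. Chance alone flags about 1 in 20 groups. Itga6, an integrin, stood at 52.4 CPM in library hf1 of Cx3cr1pos HFD, above 17.4 to 22.1 CPM in the others. Ighm, an immunoglobulin heavy chain gene, stood at 1470.0 CPM in library hf1 of Cx3cr1pos HFD, above 468 to 506 CPM in the others. Marco, a scavenger receptor, stood at 11.1 CPM in library hf2 of Cx3cr1pos HFD, below 34.5 to 38.5 CPM in the others. Ccl5, a chemokine, stood at 214 CPM in library hf3 of Cx3cr1pos HFD, above 72.5 to 80.4 CPM in the others. Ctsf, a cathepsin, stood at 23.4 CPM in library hf3 of Cx3cr1pos HFD, below 33.5 to 34.8 CPM in the others. C6, a complement component, stood at 78.3 CPM in library hfd2 of Cx3cr1pos HFD, above 32.3 to 33.7 CPM in the others. Gpnmb, a lysosomal glycoprotein, stood at 3845 CPM in library hfd2 of Cx3cr1pos HFD, above 1474 to 1626 CPM in the others. Atp6v0d2, a proton pump subunit, stood at 289 CPM in library hfd2 of Cx3cr1pos HFD, above 75.5 to 87.2 CPM in the others. Lpl, lipoprotein lipase, stood at 4338 CPM in library hfd2 of Cx3cr1pos HFD, above 2722 to 2911 CPM in the others. C4b, a complement component, stood at 66.4 CPM in library hfd2 of Cx3cr1pos HFD, above 21.9 to 29.1 CPM in the others. Serpina1e, an antitrypsin of hepatocytes, stood at 3.13 CPM in library hfd2 of Cx3cr1pos HFD, above 0.0780 to 0.262 CPM in the others.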

How the results depend on the processing

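The number of genes that passed was 4091 in the comparison as reported and 2527 to 4941 when 1 library was left out, with 1158 to 2445 higher and 1369 to 2496 lower. The lowest values were those without std2 and the highest those without Cx3cr1pos HFD hfd2. With other settings the count was 4741 (DESeq2), 4091 (RLE scaling), 4025 (library totals), 3960 (no filter), 3745 (at least 1 CPM in 3 libraries), 3680 (17 libraries in the fit), 3696 (12 liver libraries), 4094 (not robust) and 3979 (replicate block), with 2000 genes called in all of them and in every fit without 1 library. The deviations of same-numbered libraries correlated at -0.0551, 0.0012, 0.00751 and 0.0818, and those of other pairs at -0.161 to 0.143. With 4 and 3 libraries, these values cannot decide whether the replicate numbers pair the libraries. Under the block the calls of Nod1, Ebp, Mki67, Cd36 and Fcgr2b were lost and 5 cholesterol synthesis genes rose. Signs turned only for genes that did not pass. With the block, Spi1 came to 0.052 and S100a9 to 0.23 on the log2 scale. Over the fits without 1 library, Spi1 ran from -0.34 to 0.25, S100a9 ran from -0.55 to 1.64, Nr4a1 ran from -0.0078 to 0.50, Itga9 ran from -0.19 to 0.11, S100a8 ran from -0.60 to 0.97, Lyz2 ran from -0.019 to 0.19 and Cd68 ran from -0.11 to 0.079 on the log2 scale. Counts in lists moved by over 1.5 times in 140 cases, 100 of them counts of 3 or fewer, and hepatocyte markers were lower for 7 and alternative activation and dendritic cell genes higher for 3 each in the fit of 12 liver libraries. The median HFD KC position was 37.0 to 45.1% under its alternatives, 44.8% for genes of at least 4-fold.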

Other observations

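Immunoglobulin segments were higher in Cx3cr1pos HFD or did not pass. Of 59 variable segments tested, 39 rose and 0 fell, as did 7 of 8 joining segments and 4 of 7 constant segments, and all 3 T cell receptor constant segments rose. Of 12 genes tested on the Fc receptor list, 5 rose, and 4 of these are B cell genes: Fcer2a, the low-affinity IgE receptor (18.7 ± 11.3 CPM in Cx3cr1pos HFD and 1.27 ± 0.270 CPM in STD KC), Fcrl5 (log2 fold change 4.40 ± 0.87), Fcrla (log2 fold change 3.10 ± 0.51) and Ms4a1 (26.6 ± 15.5 CPM in Cx3cr1pos HFD and 2.15 ± 0.411 CPM in STD KC), which encodes CD20, is no Fc receptor and is also on the list of B cell markers. The macrophage member Fcgr4, an activating IgG receptor, rose by 0.44 ± 0.11 on the log2 scale (adjusted p = 0.018) and did not pass without std1 or std2. Members that fell were Fcgrt, the neonatal Fc receptor (588 ± 75.3 CPM in Cx3cr1pos HFD and 1501 ± 279.8 CPM in STD KC), and Fcgr2b, the inhibitory IgG receptor (log2 fold change -0.66 ± 0.22), a call lost without std1, std2 or Cx3cr1pos HFD hf2, hf3 or hfd2. Fcgr2b is also on the list of sinusoidal endothelial markers, of which 15 of 16 fell, and the part of such cells was not tested. Of the 12 genes tested on the Fc receptor list, 58.3% were called against 29.8% of all genes tested.

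Genes of alternative activation were split, with 10 of 23 lower and 5 higher, 65.2% called against 29.8% of all genes tested. Retnla, a secreted product of cells treated with interleukin-4, averaged 3.00 ± 1.48 CPM in Cx3cr1pos HFD and 7.51 ± 0.173 CPM in STD KC (log2 fold change -1.32 ± 0.35), a call lost without std1, std2 or std3. Chil3, a chitinase-like protein, averaged 6.94 ± 2.06 CPM in Cx3cr1pos HFD and 0.356 ± 0.315 CPM in STD KC (log2 fold change 4.26 ± 0.67, adjusted p = 0.0013), and Mgl2, a galactose lectin, averaged 4.11 ± 1.19 CPM in Cx3cr1pos HFD and 1.18 ± 0.201 CPM in STD KC (log2 fold change 1.81 ± 0.30). Of 27 immediate early and dissociation stress genes, 7 rose (4 without std2) and 3 fell, 37.0% called against 29.8% of all genes tested. Egr2, a zinc-finger factor, averaged 69.2 ± 11.6 CPM in Cx3cr1pos HFD and 11.8 ± 4.65 CPM in STD KC (log2 fold change 2.57 ± 0.25, adjusted p = 7.7e-05), and the phosphatase gene Dusp2 averaged 29.1 ± 17.9 CPM in Cx3cr1pos HFD and 2.89 ± 1.24 CPM in STD KC (log2 fold change 3.32 ± 0.57, adjusted p = 0.0022). The heat-shock genes Hspa1a and Hspa1b were lower instead, near-identical copies whose reads can be shared (log2 fold changes -1.15 ± 0.33 and -1.61 ± 0.45), and their calls were lost without std2, std3 or Cx3cr1pos HFD hf1 or hf2.

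The share of genes called was 6.90% for the cell cycle, 31.0% for interferon-stimulated genes and 33.3% for erythroid markers, against 29.8% of all genes tested. Of 29 cell cycle genes 1 rose, Mki67 (35.4 ± 4.56 CPM in Cx3cr1pos HFD and 27.8 ± 0.565 CPM in STD KC, log2 fold change 0.35 ± 0.11), and 1 fell, Tyms (log2 fold change -0.60 ± 0.15), and neither passed without std2 or std3, nor Mki67 without std1 or Cx3cr1pos HFD hf1 or hf3. Of 29 interferon-stimulated genes 4 rose and 5 fell, with Isg15 at a log2 fold change of 0.80 ± 0.20. None of the 4 passed without std2 or std3, and none of the 5 passed without std1 or std2. Without Cx3cr1pos HFD hf3, 1 rose and 3 fell, and 2 fell without std3 or Cx3cr1pos HFD hf1 or hf2. Of 6 erythroid markers tested 2 fell, and the list summed to 10.2 to 24.4 CPM in Cx3cr1pos HFD and 26.2 to 39.8 CPM in STD KC. Of 250 lincRNAs 24 rose and 39 fell, and of 254 antisense genes 14 rose and 29 fell, antisense calls being uncertain where the counting does not use strand.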
